A study of Rattus norvegicus with 12 samples.

Results

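Genes that build ribosomes and genes for the subunits of the nuclear RNA polymerases were examined in rat brain tissue 24 h after a stroke. The set was defined by gene symbol and not by measured values. It took every probe set assigned to a single gene named as a Polr1, Polr2 or Polr3 subunit, as a Nop, Utp or Nol gene, as Imp3, Imp4, Wdr12, Wdr43 or Wdr75, or as one of a short list of nucleolar factors headed by Ncl, Fbl and Dkc1. This gave 74 genes with 90 probe sets, of 14217 genes with 20826 such probe sets on the array. Npm1, which the definition also names, had no probe set assigned to it alone and was not analysed here.

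Male Sprague-Dawley rats, 8 weeks old, had either an occlusion of the middle cerebral artery followed by reperfusion (MCAO, n = 7) or a sham operation (Sham, n = 5). In both groups RNA came from the whole left hemisphere at 24 h after reperfusion. Which side was occluded and for how long is not given in the sources used here, so the tissue may hold damaged and spared regions in unknown proportion. The design text counts 12 rats, 1 for each array. Values are the authors' log2 probe set values. A difference of 1 on this scale is a doubling. Array medians lay between 7.23 and 7.28. For each gene the probe set of highest mean stands for it, and genes were compared with limma across 12153 genes at an adjusted p of 0.05.

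Ribosome production starts in the nucleolus, where RNA polymerase I copies the ribosomal RNA genes. The precursor is then modified by small nucleolar ribonucleoproteins (snoRNPs), cleaved, folded and packed with ribosomal proteins by separate sets of factors for the small (40S) and the large (60S) subunit. RNA polymerase III makes the 5S ribosomal RNA and transfer RNAs, and RNA polymerase II makes the messenger RNAs of all the proteins involved. Nucleolar output is known to follow growth signals and cell proliferation and to respond to cell stress.

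Most of these genes were higher after MCAO. The strongest rises were in the snoRNP proteins (Fbl, 2.01-fold, 95% confidence interval 1.54 to 2.61), in 60S assembly factors (Nip7, 1.85-fold, and Ebna1bp2, 1.81-fold) and in an RNA polymerase I subunit (Polr1f, 1.61-fold). Of the 5 varying subunits private to RNA polymerase II, 4 were called higher, with a median log2 change of 0.27. Of the 4 shared by all 3 polymerases, 2 were, with a median of 0.30. Of all varying genes, 35.2% were called higher. Differences between role groups were not tested. No subunit private to RNA polymerase III could be evaluated. A single gene of the set was lower, Nol4, which carries the nucleolar name without a known place in ribosome assembly.

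All 74 genes exceeded the filter on low values in all 12 arrays. For 21 of them (28.4%) the deposited values were almost identical in every array, with an SD over the 12 arrays of at most 0.00076. The other 53 had an SD of at least 0.103. Such near-constant values were common in the deposited table, at 5814 of the 12153 genes tested (47.8%), and the smallest differences in them have no interpretable size. They were therefore counted apart, and 3 calls that the test made among the 21 are not interpreted. The 53 varying genes also had an SD of at least 0.01 within Sham alone and within MCAO alone, so this division does not rest on the difference between groups.

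Of the 53 varying genes, 41 were called higher in MCAO (77.4%), where 35.2% of all varying genes were. One gene (1, or 1.89%) was called lower, against 34.2%, and 11 were not called. The log2 change was positive for 51 of the 53 (96.2%), against 51.9% of all varying genes. Its median was 0.35, against 0.03 for all 6339 varying genes. In 23 genes (43.4%) every MCAO value lay above every Sham value, which held for 17.9% of varying genes. By contrast, only 8 were called and at least 1.5-fold higher (15.1%, against 9.61%), so the set was marked by many moderate rises. Counted over all 74 genes, 55.4% were varying and called higher, against 18.3% of all genes tested. In a fit of single probe sets, 49 of 62 varying probe sets of these genes were called higher (79.0%, against 37% of all varying probe sets) and 2 were lower.

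**Figure D1:**
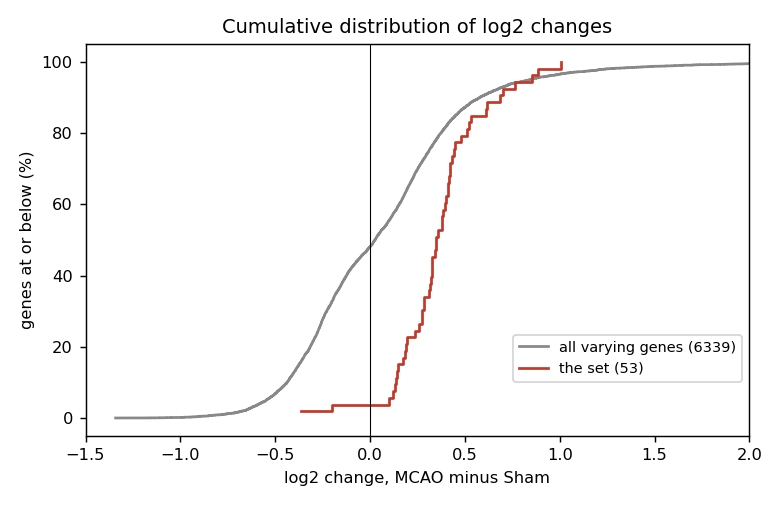
Cumulative share of genes (y axis, percent) at or below each log2 change, MCAO minus Sham (x axis), for the 53 varying genes of the set and all 6339 varying genes. The x axis ends at 2.0, beyond which lie 33 of all varying genes. The curve of the set stays near 0 on the left and climbs mainly between changes of 0.1 and 0.7.

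**Figure D2:**
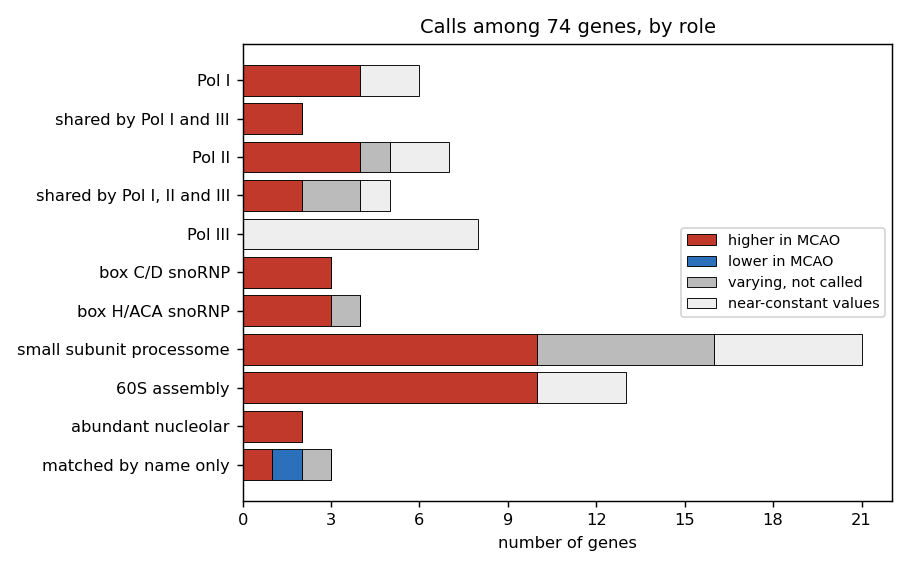
Number of genes (x axis) in each role group (y axis), split by the limma call at an adjusted p of 0.05, with near-constant genes apart. Genes called higher in MCAO are found in every group with varying values, and the RNA polymerase III group holds near-constant genes only.

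The hemisphere is a mixture of cells, and in such bulk tissue a change in the number of cells of a type cannot be told apart from a change of RNA per cell. The brain label was matched by neuronal transcripts, with Snap25 at a mean log2 value of 13.31 in Sham and 13.06 in MCAO. Several cell type lists also differed between the groups. Of 10 varying phagocyte markers 9 were called higher, and their mean difference from the Sham mean ran from 1.14 to 2.04 in the MCAO arrays and from -0.06 to 0.15 in Sham. All 10 varying proliferation markers were called higher, with a mean difference of 0.16 to 1.01 in MCAO, as were 7 of 7 reactive astrocyte markers and 7 of 7 neutrophil and monocyte markers. Of 12 neuronal markers 7 were called lower and 0 higher, with a mean difference of -0.47 to -0.10 in MCAO. General astrocyte markers were lower in 5 of 6 varying genes and oligodendrocyte markers in 2 of 5, and endothelial markers were higher in 4 of 7 and lower in 1. For comparison, 34.2% of all varying genes were called lower and 35.2% higher. The lowest deposited value was 5.0, so none of these markers is listed at 0. Their part in the rise of the ribosome genes was not tested.

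The box C/D snoRNP, which adds methyl groups to ribose in ribosomal RNA, had the largest median change of the role groups, 0.77. All 3 of its genes were called higher, and in all 3 every MCAO value lay above every Sham value. The promoters of its catalytic gene Fbl and its scaffold gene Nop58 are printed here together with that of Dkc1, the catalytic gene of the other snoRNP class, because these genes rose clearly and their promoters share a short motif. Each run gives the 250 bases before the RefSeq start of the gene on the GRCr8 assembly, 5′ to 3′. Fbl lies at chr1:92597157-92597406, Nop58 at chr9:68614824-68615073 and Dkc1 at chrX:157751401-157751650, all on the plus strand. Capitals mark CCGGAAG on either strand (CTTCCGG when read on the minus strand), the letters of an ETS-family site, and CACGTG, the E-box recognised by Myc and related factors.
Fbl: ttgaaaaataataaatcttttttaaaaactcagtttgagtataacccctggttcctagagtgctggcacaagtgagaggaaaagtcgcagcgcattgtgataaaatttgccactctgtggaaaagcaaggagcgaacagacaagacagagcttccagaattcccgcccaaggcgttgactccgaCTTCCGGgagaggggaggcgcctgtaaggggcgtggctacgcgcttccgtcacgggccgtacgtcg
Nop58: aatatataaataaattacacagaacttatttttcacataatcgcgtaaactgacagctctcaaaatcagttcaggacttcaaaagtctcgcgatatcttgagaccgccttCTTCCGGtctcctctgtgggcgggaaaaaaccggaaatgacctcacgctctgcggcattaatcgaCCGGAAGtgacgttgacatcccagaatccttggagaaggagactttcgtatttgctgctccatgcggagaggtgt
Dkc1: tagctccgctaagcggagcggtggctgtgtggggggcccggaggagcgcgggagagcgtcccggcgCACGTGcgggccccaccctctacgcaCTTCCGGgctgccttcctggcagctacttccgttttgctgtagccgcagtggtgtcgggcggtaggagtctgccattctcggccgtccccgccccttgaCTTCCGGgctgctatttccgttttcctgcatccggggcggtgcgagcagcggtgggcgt

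CCGGAAG begins 66 bases before the start in Fbl and 140 and 75 bases before it in Nop58. In Dkc1 it begins at 158 and 59 bases, with a CACGTG at 184 bases. Nop56, the remaining box C/D gene, had neither motif in this window. Neither did Nip7 and Polr1f, which were also among the genes at least 1.5-fold higher. RefSeq promoters were found for 66 of the 74 genes by Entrez ID. CCGGAAG on either strand occurred in 26 of these 66 (39.4%), in 14.2% of the promoters of all genes tested and in 7.27% of all 33469 RefSeq promoters of the same length. Among genes called higher it was in 18 of 36 of the set and in 16.2% of all varying genes called higher. CCGGAAG was in 4 of the 20 near-constant genes with a promoter (20.0%) and in 6 of the 8 genes that were called and at least 1.5-fold higher. CACGTG occurred in 12 of the 66 promoters (18.2%), against 8.19% of those of all genes tested and 5.59% of all promoters. Among genes called higher it was in 7 of 36 (19.4%), against 9.06% of all varying genes called higher. The first motif, CCGGAAG, was chosen after promoters of genes of the set had been read. Its counts in the set, above all in those 8 genes, depend on that choice and are no independent evidence for the motif. These are counts of letters in a fixed window and carry no measurement of a bound factor.

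Fibrillarin, encoded by Fbl, is the methyltransferase of the box C/D particle. Its log2 values were 8.87, 8.71, 8.78, 8.82 and 8.85 in Sham arrays 1 to 5, and from 9.15 to 10.19 with a median of 10.0 in MCAO. The groups did not overlap, and the lowest MCAO value was that of MCAO 4. The log2 change of Fbl was 1.01 (SE 0.17, limma adjusted p = 0.00208). Nop58, a core scaffold of the same particle, stood at 8.92, 8.94, 8.95, 9.05 and 8.95 in Sham and between 9.22 and 10.01 in MCAO, with a median of 9.81. Its change was 0.77 (SE 0.13, limma adjusted p = 0.00228), again without overlap and again lowest in MCAO 4. Nop56, the partner of Nop58, read 9.74, 9.72, 9.72, 9.61 and 9.78 in Sham and 9.92 to 10.50 in MCAO. Its rise was the smallest of the 3 at 0.43 (SE 0.09, limma adjusted p = 0.00397).

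The box H/ACA snoRNP converts uridine to pseudouridine in ribosomal RNA, and the same proteins also bind telomerase RNA. Of its 4 proteins, 3 rose by similar amounts and the fourth did not pass the test. Dkc1, the gene of the pseudouridine synthase dyskerin, read 7.53, 7.63, 7.67, 7.74 and 7.59 in Sham. Its MCAO values ran from 7.97 to 8.50 with a median of 8.27, all above Sham, a change of 0.62 (SE 0.09, limma adjusted p = 0.00136). Gar1, which is needed for catalysis, stood at 7.84, 7.76, 7.82, 7.66 and 7.90 in Sham and at 8.08 to 8.82 in MCAO, with a median of 8.53. These groups were also apart, by 0.70 on average (SE 0.12, limma adjusted p = 0.00239). Nhp2, an RNA-binding component, had Sham values of 8.99, 8.75, 8.68, 8.79 and 8.97 and MCAO values of 8.99 to 9.70 with a median of 9.47. Its change was 0.61 (SE 0.11, limma adjusted p = 0.00285), but the lowest MCAO value, in MCAO 2, was level with the highest Sham value to the second decimal. Nop10, the smallest component, read 10.75, 10.72, 10.77, 10.83 and 10.84 in Sham and 10.68 to 11.03 in MCAO with a median of 10.94. Its difference of 0.12 (95% confidence interval 0.00 to 0.25, limma adjusted p = 0.0924) was not called, and MCAO 2 lay below all Sham arrays. Without MCAO 2 the change of Nop10 was 0.16 and was called (limma adjusted p = 0.00612).

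**Figure D3:**
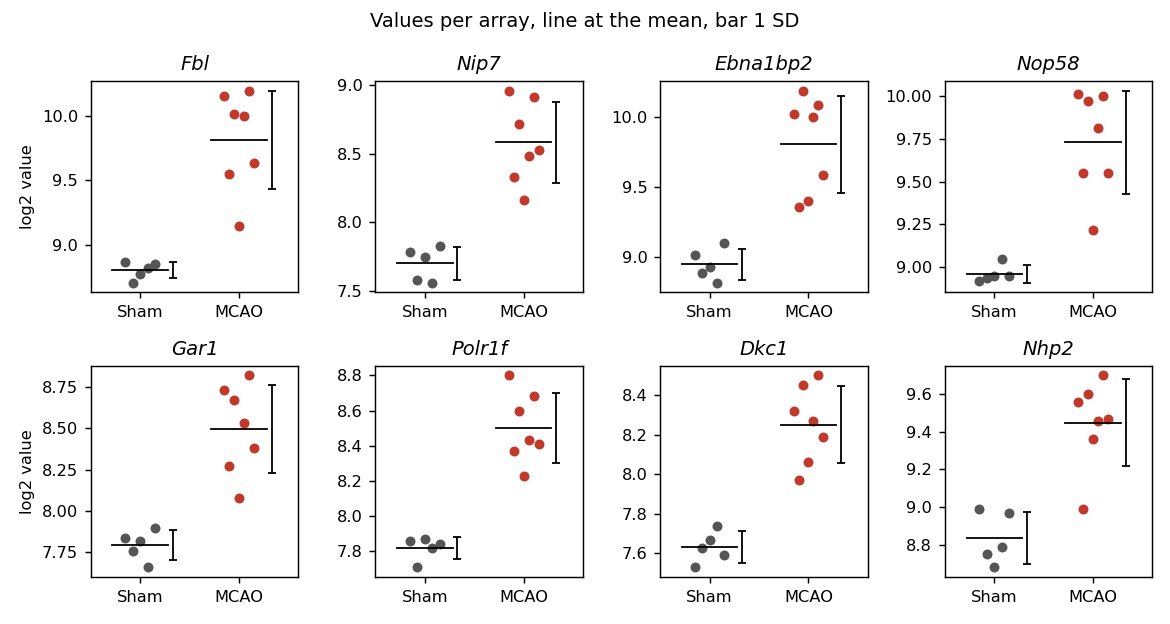
Log2 values (y axes, each with its own range) of the 8 genes that were called and at least 1.5-fold higher, 1 point for each array, 5 Sham and 7 MCAO. Horizontal lines mark the group means and vertical bars 1 SD. In each panel all MCAO points lie above the Sham points, by less than 0.01 for the closest pair of Nhp2, and they spread more widely.

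RNA polymerase I transcribes the large ribosomal RNA precursor. Of its 6 private subunits on the array, 4 varied and all 4 were called higher, with a median change of 0.48. Polr1f, part of the stalk that protrudes from the enzyme, read 7.86, 7.71, 7.87, 7.82 and 7.84 in Sham and 8.23 to 8.80 in MCAO, with a median of 8.43. This was the largest change among all polymerase subunits, 0.68 (SE 0.09, limma adjusted p = 0.001), and the groups did not overlap. A second probe set of Polr1f rose by 0.64, while the remaining one fell below the filter on low values and was near-constant. Polr1g and Polr1e encode the pair of subunits that resembles a general initiation factor of RNA polymerase II. Polr1g stood at 6.81, 6.87, 6.87, 6.81 and 6.87 in Sham and at 7.02 to 7.60 in MCAO, a change of 0.53 (limma adjusted p = 0.00202) with no overlap. Polr1e read 7.44, 7.47, 7.67, 7.54 and 7.55 in Sham and 7.54 to 8.28 in MCAO. Its change was 0.42 (limma adjusted p = 0.0116), and 6 of 7 MCAO arrays exceeded the highest Sham array, the exception being MCAO 4. Polr1h, a small subunit involved in RNA cleavage, had Sham values of 8.19, 8.20, 8.21, 8.21 and 8.36 and MCAO values of 8.42 to 8.76, a change of 0.38 (limma adjusted p = 0.00154). Polr1a and Polr1b, which form the catalytic core, were near-constant at 7.17 and 7.87 in all arrays and say nothing on the enzyme's core.

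Polr1c and Polr1d encode the pair of assembly subunits shared by RNA polymerases I and III. Polr1c read 8.27, 8.26, 8.37, 8.42 and 8.38 in Sham and 8.56 to 8.81 in MCAO. It had the narrowest spread in MCAO of all varying genes of the set (SD 0.10), and its change of 0.35 left no overlap (SE 0.05, limma adjusted p = 0.00149). Polr1d stood at 10.04, 9.99, 10.04, 9.99 and 10.19 in Sham and at 10.12 to 10.64 in MCAO. Its change was 0.40 (SE 0.09, limma adjusted p = 0.00573), with MCAO 2 below Sham 5. These shared subunits are the only ones of the RNA polymerase III enzyme, besides those common to all 3 polymerases, for which a change could be measured. The 8 genes of private subunits, Polr3a, Polr3b, Polr3c, Polr3d, Polr3e, Polr3f, Polr3g and Polr3k, were near-constant on 9 of 9 probe sets.

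RNA polymerase II transcribes the protein-coding genes. Of its 7 private subunits 5 varied, and 4 of these were called higher, with a median change of 0.27 over the 5. Polr2d, a stalk subunit, read 8.47, 8.45, 8.49, 8.38 and 8.59 in Sham and 8.63 to 9.11 in MCAO, and it alone among these genes showed no overlap. Its change was 0.41 (SE 0.08, limma adjusted p = 0.00357). Its stalk partner Polr2g changed by 0.18 (limma adjusted p = 0.0191), with Sham values of 9.90, 9.81, 9.83, 9.92 and 9.96 and 6 of 7 MCAO values between 10.06 and 10.17. The remaining array, MCAO 2, read 9.84, inside the Sham range. Polr2c, an assembly subunit, changed by 0.29 (limma adjusted p = 0.0162) and Polr2i, which takes part in RNA cleavage, by 0.27 (limma adjusted p = 0.03). Polr2j, the partner of Polr2c, had a difference of 0.13 (95% confidence interval -0.09 to 0.35, limma adjusted p = 0.329) and was not called. The large catalytic subunits Polr2a and Polr2b were near-constant.

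Of the 5 subunits shared by all 3 polymerases, Polr2h was near-constant, Polr2f and Polr2l were called higher, and Polr2e and Polr2k were not called. Polr2l changed by 0.28 (limma adjusted p = 0.0118), with Sham values of 9.87, 9.81, 9.79, 9.80 and 10.00 and MCAO values of 9.85 to 10.28. Polr2f changed by 0.32 (limma adjusted p = 0.03). It read 9.24, 8.95, 9.01, 8.95 and 9.21 in Sham, and 6 of 7 MCAO values lay between 9.42 and 9.53, above all of Sham. MCAO 2 was at 8.94, below all of Sham. Polr2k had a difference of 0.35 (95% confidence interval 0.06 to 0.64, limma adjusted p = 0.0535) and Polr2e by 0.19 (0.01 to 0.36, limma adjusted p = 0.0789). Without MCAO 2, Polr2k changed by 0.43 (limma adjusted p = 0.00516) and Polr2e by 0.24 (limma adjusted p = 0.00213), and both were called. Polr2k was also called without Sham 5 (limma adjusted p = 0.0259). In the other direction, the calls of Polr2f and Polr2i had small margins. Polr2f lost its call on omission of MCAO 1, 3, 5, 6 or 7 or of Sham 2, 3 or 4, with limma adjusted p-values of 0.0512 to 0.0761. Polr2i lost its call on omission of MCAO 3, 5, 6 or 7 or of Sham 1, 2, 3 or 4, with limma adjusted p-values of 0.0513 to 0.0742. Polr2g lost its call without Sham 2 (limma adjusted p = 0.0527) or without Sham 3 (limma adjusted p = 0.0505).

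The small subunit processome is the large assembly that forms on the nascent precursor and releases the 40S subunit precursor. It was the largest role group, with 21 genes, of which 16 varied, 10 were called higher and 6 were not called. Its median change was 0.31. Utp3, a processome component, read 8.88, 8.85, 8.95, 8.77 and 9.01 in Sham and 9.08 to 9.78 in MCAO, a change of 0.52 (SE 0.10, limma adjusted p = 0.00348) without overlap. Nop14, which binds the precursor of the 40S subunit, stood at 7.21, 7.24, 7.30, 7.17 and 7.24 in Sham and at 7.34 to 7.88 in MCAO. The groups did not overlap, and the change was 0.39 (SE 0.08, limma adjusted p = 0.00409). Bysl, a late 40S maturation factor, changed by 0.40 (SE 0.08, limma adjusted p = 0.00469), from Sham values of 8.06, 8.07, 8.16, 7.98 and 7.99 to MCAO values of 8.14 to 8.64. The MCAO 4 value of Bysl was within the Sham range. Imp4 and Utp14a also had no overlap between groups, and Nop9, Wdr43, Utp4, Imp3 and Nol11 were called higher with overlap, over a range of changes from 0.19 to 0.45.

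The 6 genes of this group that were not called were Utp23, Utp18, Nol7, Utp6, Wdr75 and Utp15, with log2 differences from 0.10 to 0.24. For 2 of them the probe set mattered. A second probe set of Utp6 changed by 0.40 (limma adjusted p = 0.0178 in the fit of single probe sets), against 0.14 for the probe set with the higher mean. A second probe set of Wdr75 changed by 0.37 (limma adjusted p = 0.00543 in the same fit), against 0.14. Nol6, Nol10, Utp11, Utp20 and Utp25 were near-constant.

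Assembly of the 60S subunit was covered by 13 genes, of which 3 were near-constant. All 10 varying ones were called higher, 6 of them without overlap, and their changes ran from 0.26 to 0.89 with a median of 0.39. Nip7, which takes part in precursor processing, read 7.78, 7.58, 7.75, 7.56 and 7.83 in Sham and 8.16 to 8.96 in MCAO with a median of 8.53. The change of Nip7 was 0.89 (SE 0.14, limma adjusted p = 0.0016). Ebna1bp2, a nucleolar 60S factor, stood at 9.02, 8.89, 8.93, 8.82 and 9.10 in Sham and at 9.36 to 10.19 in MCAO with a median of 10.0, a change of 0.85 (SE 0.16, limma adjusted p = 0.00284). In Ebna1bp2 the MCAO arrays fell into 4 at 10.00 or above and 3 at 9.59 or below, namely MCAO 2, MCAO 4 and MCAO 7. Nol12, a nucleolar RNA-processing protein, changed by 0.51 (SE 0.08, limma adjusted p = 0.00161), from 7.25, 7.09, 7.15, 7.10 and 7.25 in Sham to 7.45 to 7.87 in MCAO. Ftsj3, a methyltransferase of the precursor, changed by 0.42 (SE 0.08, limma adjusted p = 0.00296), from 7.70, 7.77, 7.72, 7.69 and 7.75 in Sham to 7.86 to 8.31 in MCAO. Neither Nol12 nor Ftsj3 overlapped between groups.

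Among the other 60S genes were the 3 components of the PeBoW complex, which is needed for processing of the large subunit RNA. Bop1 changed by 0.33, Wdr12 by 0.31 and Pes1 by 0.26, all called, and all with some overlap. Nop16 and Nop2, the latter a methyltransferase of the large ribosomal RNA, changed by 0.48 and 0.36 without overlap. Rrs1, which helps to bring in the 5S RNA, changed by 0.33. Nol8, Nol9 and Nop53 were near-constant, although a second probe set of Nol8 varied and changed by 0.42 (limma adjusted p = 0.0111 in the fit of single probe sets). Of 14 genes in the set with several probe sets, 8 had at least 2 that varied, and in 8 of 8 these had the same sign. In 7 of the 14 a varying and a near-constant probe set of the same gene stood side by side, which also held for 43.8% of all genes with several probe sets.

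The abundant nucleolar proteins Ncl and Mybbp1a both rose. Nucleolin, encoded by Ncl, acts in transcription and folding of the precursor. Ncl values were 10.89, 10.86, 10.83, 10.90 and 10.85 in Sham and 11.01 to 11.50 in MCAO with a median of 11.34. The groups were apart and the change was 0.42 (SE 0.09, limma adjusted p = 0.00442). Mybbp1a, which binds transcription factors in the nucleolus, read 8.72, 8.80, 8.84, 8.69 and 8.78 in Sham and 8.93 to 9.34 in MCAO, a change of 0.41 (SE 0.07, limma adjusted p = 0.00202).

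The 3 genes that entered by name without a known role in ribosome assembly went different ways. Nol4 was lower in MCAO in all arrays, at 9.63, 9.47, 9.46, 9.42 and 9.45 in Sham and 8.82 to 9.38 in MCAO. Its change was -0.37 (SE 0.10, limma adjusted p = 0.0133). Its relative Nol4l had a difference of -0.20 (95% confidence interval -0.41 to 0.00, limma adjusted p = 0.103) and was not called. Without MCAO 2, Nol4l changed by -0.26 and was called (limma adjusted p = 0.00686). Nol3, known as an inhibitor of apoptosis, changed by 0.31 (SE 0.08, limma adjusted p = 0.0136).

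**Figure D4:**
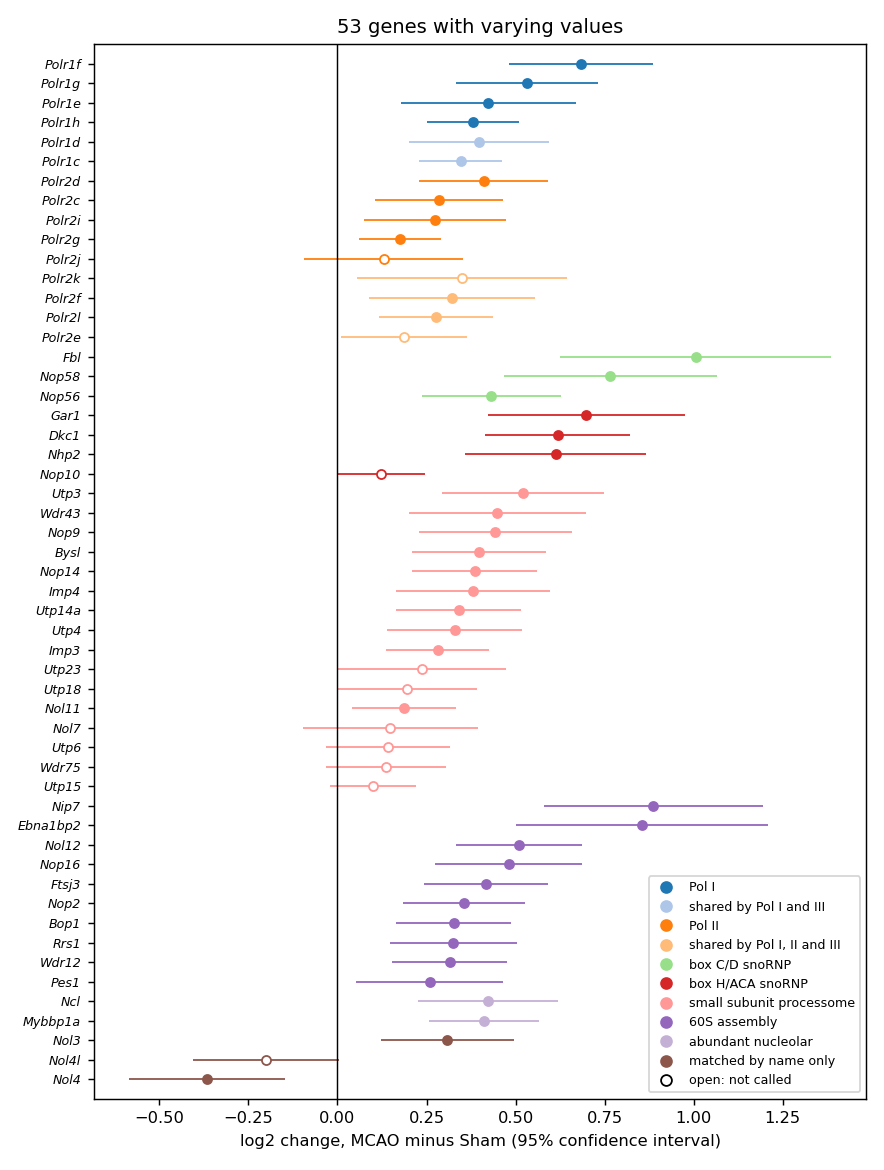
Log2 change, MCAO minus Sham (x axis), with its 95% confidence interval from limma, for each of the 53 varying genes (y axis), coloured by role group. Filled points passed an adjusted p of 0.05 and open points did not. Most genes lie between 0.1 and 0.7, Fbl is farthest to the right at 1.01, and Nol4 and Nol4l alone lie to the left of 0.

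The MCAO arrays differed among themselves more than the Sham arrays did. In 52 of the 53 genes (98.1%) the MCAO group had the larger SD, which also held for 89.4% of all varying genes. Averaged over the 53 genes, the difference from the Sham mean was 0.51 in MCAO 1, 0.22 in MCAO 2, 0.47 in MCAO 3, 0.16 in MCAO 4, 0.41 in MCAO 5, 0.50 in MCAO 6 and 0.30 in MCAO 7. The Sham arrays lay between -0.04 and 0.06. Every MCAO array was thus above every Sham array, with MCAO 2 and MCAO 4 the lowest.

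These low arrays were low for different genes. Of the 9 varying subunits private to RNA polymerase II or shared by all 3 polymerases, MCAO 2 had the lowest MCAO value in 8 and MCAO 4 in 1. Of the 41 varying genes in the other role groups, MCAO 4 was lowest in 30 and MCAO 2 in 10. The box C/D genes averaged 0.27 in MCAO 4 and 0.56 in MCAO 2, whereas the subunits shared by all 3 polymerases averaged 0.28 in MCAO 4 and -0.11 in MCAO 2. The division was not one of nucleolar genes against the rest. The box H/ACA genes averaged 0.34 in MCAO 4 and 0.22 in MCAO 2, which was the lowest array for 3 of these 4 genes, and the pair shared by RNA polymerases I and III averaged 0.28 and 0.22. Among all 2229 varying genes called higher, MCAO 4 was lowest in 1086 and MCAO 2 in 961. Proliferation markers averaged 0.78 in MCAO 4 and 0.16 in MCAO 2, and phagocyte markers 1.40 and 1.14. Reactive astrocyte markers went the other way, at 1.555 and 2.058, as did endothelial markers, at 0.018 and 0.226. Neutrophil and monocyte markers averaged 0.726 and 0.723, and oligodendrocyte markers 0.049 and -0.038. Neuronal markers averaged -0.186 and -0.104, and general astrocyte markers -0.067 and -0.232. The part of these cell type lists in this division was not tested. Omission of MCAO 2 gave 46 genes of the set called higher and 2 lower, and omission of MCAO 4 gave 45 and 1. Calls also rose outside the set. Of all varying genes, 2557 were called higher without MCAO 2 and 2316 without MCAO 4, against 2229 with all arrays.

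**Figure D5:**
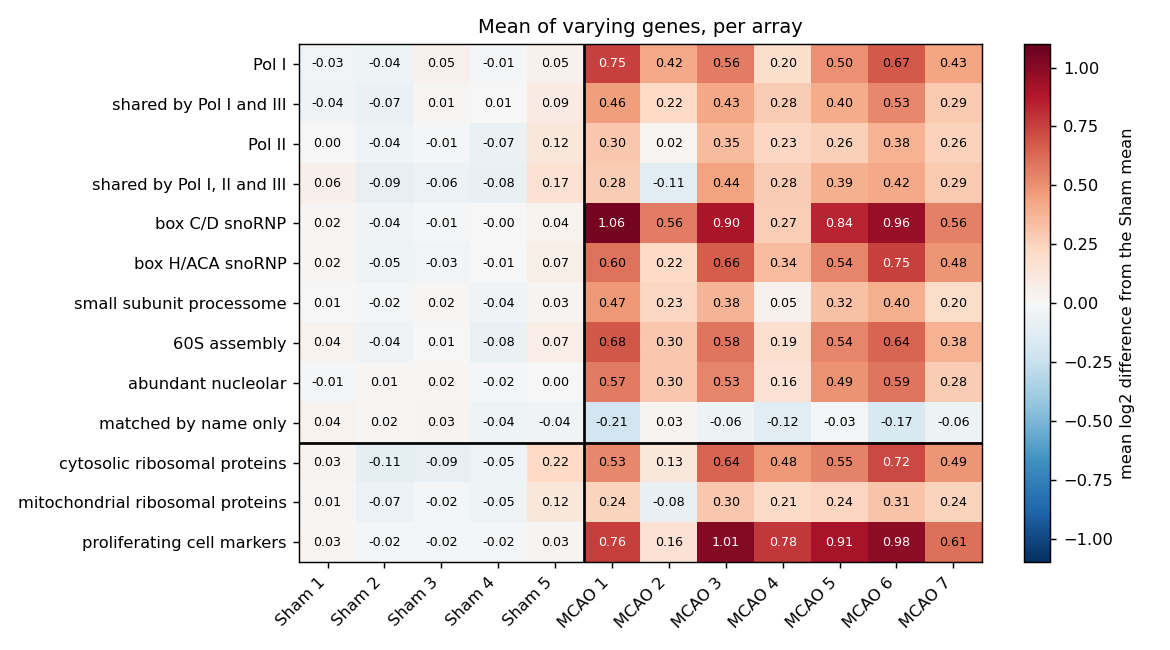
Mean log2 difference from the Sham mean (colour and printed value) over the varying genes of each role group and of 3 comparison lists (rows) in each of the 12 arrays (columns). MCAO 4 is the palest MCAO array in the polymerase I, box C/D, small subunit, 60S and abundant nucleolar rows. MCAO 2 is the palest in the box H/ACA row, the polymerase II and shared subunit rows, and the ribosomal protein and proliferation rows.

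The ribosomal proteins, which are the cargo of this assembly line, offered a comparison. Of 41 varying genes for cytosolic ribosomal proteins, 40 were called higher and 0 lower, with a median change of 0.47. MCAO 2 was the lowest MCAO array in 40 of the 41, as in the polymerase II subunits. For mitochondrial ribosomal proteins, 26 of 56 varying genes were called higher, with a median change of 0.18, and MCAO 2 was lowest in 53. A difference in size between these lists and the assembly factors was not tested.

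Other genes of the pathway, outside the definition of the set, mostly changed in the same direction. Of 28 further varying small subunit factors 23 were called higher, 0 lower and 5 not called. Rcl1, an enzyme of precursor cleavage, changed by 0.74 (limma adjusted p = 0.000989), from 7.90, 7.83, 7.86, 7.93 and 7.99 in Sham to 8.25 to 8.89 in MCAO. Tsr1, a late 40S factor, changed by 0.46 (limma adjusted p = 0.00155). Of 24 further large subunit factors 22 were called higher, 0 lower and 2 not called, among them Brix1 with a change of 0.62 (limma adjusted p = 0.00155). Sbds, which readies the 60S subunit for translation, had a small change of 0.12 that was nevertheless clear of the spread (SE 0.02, limma adjusted p = 0.00106). The nucleolar RNA helicase Ddx21 changed by 0.85 (limma adjusted p = 0.00225) and the nucleolar matrix protein Surf6 by 0.26 (limma adjusted p = 0.00792). Of 6 varying genes of the RNA exosome, which trims the precursor, 5 were called higher, led by Exosc1 at 0.42 (limma adjusted p = 0.00323), and Exosc2 was near-constant.

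Further genes that act with RNA polymerases I and III could be assessed in few cases. Of those tested, 5 of 6 for RNA polymerase I and 8 of 11 for RNA polymerase III were near-constant. Taf1d, a subunit of the selectivity factor for RNA polymerase I, changed by 0.36 (limma adjusted p = 0.0198), and its partner Taf1b was near-constant. Of the 3 varying RNA polymerase III factors, 2 were called higher and 1 lower. Gtf3c1, the largest subunit of its promoter-binding factor, was lower, at -0.29 (limma adjusted p = 0.0111), and Brf1, a subunit of its initiation factor, was higher, at 0.19 (limma adjusted p = 0.0167). Gtf3a, which binds the 5S RNA gene, was also higher, at 0.35 (limma adjusted p = 0.0248).

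The transcription factor Myc, a known activator of ribosome biogenesis genes, rose more than any gene of the set. Myc stood at 6.53, 6.60, 6.77, 6.64 and 6.63 in Sham and at 7.45 to 9.11 with a median of 8.74 in MCAO. Its change was 1.93, or 3.80-fold (SE 0.25, limma adjusted p = 0.000948), and its lowest MCAO value was that of MCAO 4. Its paralogue Mycn, best known from neural progenitors, was lower, at 7.60, 7.54, 7.66, 7.50 and 7.52 in Sham and 6.73 to 7.30 in MCAO. The change of Mycn was -0.53 (SE 0.09, limma adjusted p = 0.00183), with no overlap. Of the 6 varying genes in the list of regulators, 3 were called higher, 2 lower and 1, Mxd4, was not called. Mdm2, which controls the p53 response to nucleolar stress, changed by 0.57 (limma adjusted p = 0.00202). Max changed by 0.27 (limma adjusted p = 0.0387) and Mxi1 by -0.25 (limma adjusted p = 0.0387). Whether the level of Myc bears on that of the assembly factors was not tested.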

How the data were processed

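Each of the 12 arrays was made from biotin-labelled cRNA of 100 ng total RNA, extracted with TRIzol and cleaned on a silica column, per the labels. The authors deposited 31099 probe set values for each array on what their range (5.0 to 14.01) shows as a log2 scale. The array software and the upstream normalization are, in the sources used here, not given. Probe sets were named through the platform annotation, and 436 with several genes and 57 controls were left out. All 74 symbols matched RefSeq by Entrez ID.

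Probe sets passed with 5 or more arrays above 6.61, the 25th percentile, and each gene took its probe set with the highest mean. The groups were tested in R 4.3.3 by limma 3.58.1 (lmFit, eBayes with an intensity trend, two-sided, Benjamini-Hochberg adjustment over all 12153 genes). The p-values measure the spread between these rats. Genes with an SD under 0.01 over the 12 arrays are called near-constant. The procedure was tested on simulated data. The number of arrays limits the precision.

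Named in full were the 4 genes of each role group with the largest absolute limma statistic, genes with a log2 change of at least 0.58 and the 2 leading genes of each pathway list. Near-constant ones are given by name. Other genes named with values, and the second probe sets, were picked after their values were seen. The set, its role groups and the lists were chosen with earlier results of these data known. The lists of ribosomal proteins and the motif CCGGAAG were chosen after these data were seen. Promoters are RefSeq sequences.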

Additional observations from a re-analysis of the deposited data

Results flagged for a closer look

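In 8 of 66 groups of values of the named genes, 1 array lay far from the others by Dixon's criterion, and chance gives about 1 in 20 such groups. In 4 of them the array was MCAO 2 and it was low: Polr2f at 8.94 (next lowest 9.42), Polr2g at 9.84 (10.06), Polr2e at 8.76 (9.08) and Polr2k at 9.25 (9.70). The other four were single high Sham arrays. Sham 5 read 8.36 for Polr1h (next highest 8.21) and 10.19 for Polr1d (10.04). Sham 4 read 9.05 for Nop58 (8.95), and Sham 1 read 9.63 for Nol4 (9.47).

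A signal outside the gene comparison was found in the control probe set for 5S ribosomal RNA, a product of RNA polymerase III. This probe set was picked from the 57 controls after their values were seen, and its p-values make no allowance for that choice. It averaged 8.80 in MCAO (SD 0.36, 6 arrays) and 7.72 in Sham (SD 0.47, n = 5), a log2 difference of 1.08 (exact two-sided permutation p = 0.00866). MCAO 6 was left out there because its 57 control probe sets are shifted by 12 positions. None of the 40 near-constant controls matched the other arrays as deposited (0 of 40), and 40 of 40 matched within 0.05 once the shift was undone. The Sham values were 8.17, 7.45, 7.19, 7.50 and 8.27, and the MCAO values ran from 8.19 (MCAO 2) to 9.24 (MCAO 4), so MCAO 2 lay within the Sham range. With MCAO 6 realigned the difference was 1.15 (exact two-sided permutation p = 0.00505). The 12 hybridization spike-ins that varied differed between groups by -0.15 to 0.24, without MCAO 6. The beta-actin controls were also higher in MCAO, by 0.37 to 0.44, without MCAO 6. What sets the 5S difference was not tested.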

How the results depend on the processing

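Across 13 alternative settings and the omission of each array, between 28 and 50 genes of the set were called higher in MCAO by limma, and 0 to 2 lower. Over all genes, 3128 to 7131 were called in either direction in these settings. Unlike the counts for the set, these include near-constant genes unless the setting removed them. With the main settings the count was 5386, of which 992 were near-constant genes. Omission of single arrays gave 36 to 46 genes of the set higher and 1 to 2 lower, the 2 lower without MCAO 2. Over all genes, near-constant ones included, such omission gave 4284 to 6055 calls. Array weights gave 2 lower and a median log2 change of 0.41. Of 1125 comparisons of 45 named genes with an alternative, 1086 kept direction and call, 27 lost the call (9 genes), 12 gained it (4 genes) and 0 reversed. Most losses were in Polr2f and Polr2i.

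Nothing in the labels ties same-numbered MCAO and Sham arrays together, and pairing was not shown by the values. Their deviations correlated at 0.32, 0.54, -0.34, -0.05 and 0.16 for numbers 1 to 5, and 3 of the 5 MCAO arrays (1, 2 and 5) correlated best with their own number. With the replicate number as a block, MCAO 6 and MCAO 7 add nothing to the comparison, since no Sham array has their number. In that fit 28 genes of the set were called higher and 0 lower. Another 35 pathway genes were called, against 61, and 3128 of all genes, near-constant ones included, against 5386. Of all varying genes 1432 were called higher, against 2229. The median log2 change of the set was 0.34. Among named genes, Nol4, Polr1e, Polr2c, Polr2g, Polr2i, Polr2l, Polr2f, Taf1d and Brf1 lost their calls there.

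Near-constant values leave 21 genes without a measurement, RNA polymerase III subunits among them, and the cause of these values was not tested.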
